A study of Mus musculus with 11 samples.

Results

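The genes described here are 42 components of the contractile apparatus and the calcium handling of skeletal muscle, measured in mouse skin and in skin tumours. They were taken by symbol from an array's probesets that name a single gene, and all 42 were found among the 20352 genes measured, with 1157 probesets between them. A gene's level was the median log2 value over its probesets. The genes fall into 13 isoforms of fast fibres, 8 isoforms of slow fibres and 21 others. Expression was measured on 11 whole-transcript arrays. Of these, 5 held keratoacanthomas, which are squamous tumours of keratinocytes, and all came from K14-Cre;Zmiz1 double transgenic mice. The remaining 6 held normal skin, numbers 1 and 2 from double transgenic mice, numbers 3 and 4 from K14-Cre mice without the Zmiz1 transgene, and numbers 5 and 6 from Zmiz1 transgenic mice without Cre. In K14-Cre mice the promoter of keratin 14, active in basal keratinocytes, drives Cre recombinase. The labels give no age, strain or body site. Nor do they say that each piece came from its own animal; p-values therefore measure the spread between these arrays, which may be technical.

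Striated muscle shortens when myosin heavy chains pull on actin filaments within the sarcomere. Calcium released from the sarcoplasmic reticulum binds troponin C. Tropomyosin then shifts its position on the actin filament and uncovers the sites where myosin binds. A calcium pump afterwards refills the store. Fast and slow fibres use different isoforms of most of these proteins. Mouse skin carries a thin sheet of skeletal muscle, the panniculus carnosus, under its fat layer, and the hair follicles have small smooth muscles.

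Promoter sequences are shown, as a description, for the gene with the largest fall among the fast, slow and other isoforms, Pvalb, Mybpc1 and Ttn. Myh4 was added after its values and motifs were seen. Each run is the 250 bases before the start of transcription, 5′ to 3′ on the gene's strand, from RefSeq on GRCm38.p6. Pvalb lies at chr15:78206401-78206650 on the minus strand and is the more upstream of 2 windows. Myh4 lies at chr11:67237562-67237811 on the plus strand. Mybpc1 lies at chr10:88605153-88605402 and Ttn at chr2:76982548-76982797, both on the minus strand. Capitals mark E-boxes (CANNTG, the kind of site bound by MyoD-family factors), TATAAA on either strand, MEF2 sites and CArG boxes.
Pvalb: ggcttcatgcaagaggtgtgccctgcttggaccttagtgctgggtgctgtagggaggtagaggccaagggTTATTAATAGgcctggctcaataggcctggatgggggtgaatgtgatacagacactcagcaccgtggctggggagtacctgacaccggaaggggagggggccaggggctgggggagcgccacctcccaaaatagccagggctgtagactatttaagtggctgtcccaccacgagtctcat
Myh4: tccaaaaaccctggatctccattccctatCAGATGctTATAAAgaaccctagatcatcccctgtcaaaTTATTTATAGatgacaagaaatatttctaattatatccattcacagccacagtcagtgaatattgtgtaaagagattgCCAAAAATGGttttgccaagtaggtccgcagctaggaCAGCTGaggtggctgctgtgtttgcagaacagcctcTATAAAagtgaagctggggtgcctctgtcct
Mybpc1: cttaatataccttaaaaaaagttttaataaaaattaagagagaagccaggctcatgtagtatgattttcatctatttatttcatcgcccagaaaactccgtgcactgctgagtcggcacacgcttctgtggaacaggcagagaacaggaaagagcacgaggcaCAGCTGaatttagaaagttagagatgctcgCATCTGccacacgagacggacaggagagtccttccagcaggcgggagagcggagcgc
Ttn: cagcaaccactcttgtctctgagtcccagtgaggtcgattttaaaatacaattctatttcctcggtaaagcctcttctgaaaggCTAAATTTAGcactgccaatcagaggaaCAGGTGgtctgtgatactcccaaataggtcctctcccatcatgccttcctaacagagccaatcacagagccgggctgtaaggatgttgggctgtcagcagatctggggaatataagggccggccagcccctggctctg
The Pvalb run holds a MEF2 site that begins 180 bases before the start. In Myh4 a MEF2 site begins 182 bases, a CArG box 104 bases, the E-box CAGCTG 67 bases and a TATAAA 31 bases before the start, and the MEF2 site overlaps a TATAAA read on the other strand. Mybpc1 has CAGCTG at 87 bases and CATCTG at 57 bases. Ttn has a MEF2 site at 166 bases and CAGGTG at 138 bases.

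RefSeq windows of 300 bases, 250 before to 50 after the start, were found for 33 of the 42 genes, with 41 windows in all, since some genes have several that can overlap. CAGCTG was present in 20 of these 41 windows (48.8%), against 16.3% of the 32851 windows of all genes. Any CANNTG, which includes CAGCTG, was present in 35 (85.4%), against 72.3%. A MEF2 site was present in 6 (14.6%), against 3.19%, and a CArG box in 6 (14.6%), against 1.63%. TATAAA on either strand was present in 10 (24.4%), against 13.6%. These are matches of letters in one window, given as a description, and binding was not measured.

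Some arrays stood apart. Normal skin 2 was the highest skin for 38 of the 42 genes, and keratoacanthoma 4 and normal skins 1 and 3 were high in hair keratins. The count of genes lower in keratoacanthoma, 35 with all arrays, was 35 without normal skin 2 and 33 without those 3 arrays.

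Keratoacanthoma held far less of the muscle transcripts than normal skin. Of the 42 genes, 35 were lower and 0 were higher (limma, Benjamini-Hochberg adjusted p below 0.05 over all genes), while 10.8% of all genes were lower and 14.5% higher. The median log2 difference of the 42 was -3.22, against -0.04 over all genes. All 13 fast isoforms fell, with a median of -4.27. Of the 8 slow isoforms, 3 fell, and the median of the 8 was -0.89. Of the 21 others, 19 fell, with a median of -2.79 over the 21.

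The falls were large and mostly without overlap. In 34 of the 42 genes every tumour lay below every normal skin, against 6.31% of all genes, and Tnnt1 was lower by the test but overlapped. A fall of at least 2-fold was seen in 34 genes, against 2.55% of all genes. It was at least 8-fold in 23 of the 42 and at least 16-fold in 15. The shares of all genes at those 2 cuts were not counted. The 20 largest falls among all genes included 12 of the 42. Since whole tissue was measured, fewer muscle fibres in the sample and less RNA per fibre cannot be told apart.

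**Figure D1:**
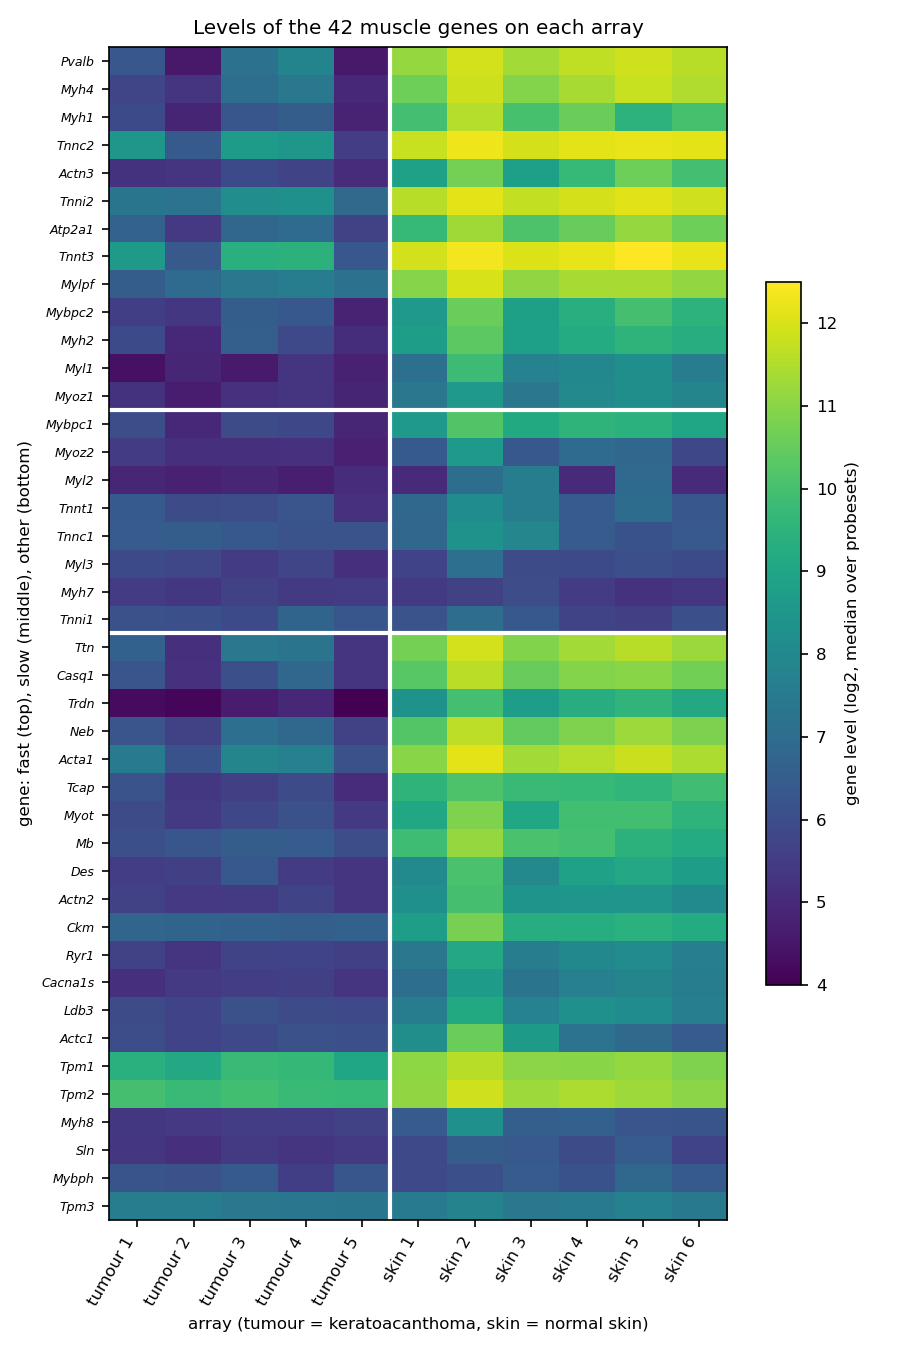
Gene level (log2, median over probesets, colour) of the 42 genes in rows, fast isoforms at the top, slow in the middle and others at the bottom, on each of the 11 arrays in columns, with tumour for keratoacanthoma and skin for normal skin. Each fast row is brighter in all 6 skins than in the 5 tumours, several slow rows change little along the row, and skin 2 is the brightest skin for 38 of the 42 genes; colours are comparable along a row, not between rows.

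Parvalbumin, Pvalb, a calcium buffer of fast fibres that speeds relaxation, had the largest fall of all genes measured. Its level was 6.30, 4.57, 7.20, 7.84 and 4.59 in keratoacanthomas 1 to 5, and in the 6 normal skins ran from 11.15 through a median of 11.63 to 11.93. Keratoacanthomas 2 and 5 were lowest and 4 was highest, and the groups stood more than 3 log2 units apart. The difference was -5.49 (SE 0.52, adjusted p = 1.3e-05, limma), a 45.0-fold lower level. Both low tumours were under the lowest 25th percentile of any array, 4.88, which is taken here as dim. The fold of Pvalb was 39.8 with levels held at each array's 25th percentile or above. With the mean over probesets in place of the median it was 34.5. Myh4, the myosin heavy chain of the fastest fibres, was 5.78, 5.27, 7.07, 7.41 and 4.99 in the tumours and 10.62 to 11.86 in skin, with a median of 11.43. The same tumours, 3 and 4, were high and 2 and 5 low, again without overlap, and Myh4 fell by 5.24 (SE 0.41, adjusted p = 2.6e-06), a 37.8-fold difference. With the mean over probesets Myh4 was 31.3-fold lower. Myh1, another fast heavy chain, was 5.89, 4.87, 6.26, 6.50 and 4.80 in the tumours and 9.50 to 11.57 in skin, with a median of 10.02. Tumours 2 and 5 were lowest here too, normal skin 2 stood above the other skins, and Myh1 fell by 4.61 (SE 0.38, adjusted p = 4.7e-06).

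The third fast heavy chain, Myh2, fell by 3.63 (SE 0.32). The fast troponins, which sense calcium and hold actin closed at rest, all fell, with Tnnc2 at -4.56 (SE 0.49), Tnni2 at -4.32 (SE 0.23) and Tnnt3 at -4.19 (SE 0.54). Tnnc2 lay close together in skin, 11.80 to 12.28, and was widely spread in the tumours, 5.55 to 8.68. Tnnt3 showed the same, with 11.91 to 12.51 in skin and 6.31 to 9.46 in the tumours. Of the fast myosin light chains, Mylpf fell by 4.18 (SE 0.21) and Myl1 by 3.29 (SE 0.37). Atp2a1, the calcium pump of fast fibres, fell by 4.27 (SE 0.34), and Actn3, the alpha-actinin of fast Z-discs, by 4.33 (SE 0.34). Mybpc2, the fast myosin-binding protein C, fell by 3.74 (SE 0.36), and Myoz1, a Z-disc protein that binds calcineurin, fell by 2.85 (SE 0.21), the smallest fall of the 13. The mean of Myl1 in the tumours was dim, and with levels held at each array's 25th percentile or above its fold was 8.01 in place of 9.76. With the mean over probesets in place of the median it was 5.76-fold. The same summary took Tnnc2 from 23.6-fold to 14.5-fold and Tnni2 from 19.9-fold to 12.7-fold.

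Slow isoforms behaved less uniformly. Mybpc1, named the slow myosin-binding protein C although fast fibres hold it as well, was 6.05, 4.99, 5.99, 5.85 and 4.90 in the tumours and 8.59 to 10.20 in skin, with a median of 9.30. The groups did not overlap, tumours 2 and 5 were again lowest, and Mybpc1 fell by 3.77 (SE 0.29, adjusted p = 2e-06, limma), a 13.6-fold difference. Myoz2, the myozenin of slow and cardiac fibres, was 5.52, 5.16, 5.18, 5.20 and 4.77 in the tumours and 5.83 to 8.61 in skin, with a median of 6.61. Normal skin 2 was far above the others and normal skin 6 was nearest to the tumours, without overlap. Myoz2 fell by 1.66 (SE 0.38, adjusted p = 0.0059), 3.16-fold with the median over probesets and 5.03-fold with the mean. Tnnt1, the slow troponin T, fell by 1.10 (SE 0.31, adjusted p = 0.020), with 5.20 to 6.39 in the tumours and 6.30 to 8.14 in skin. Without keratoacanthoma 5 its adjusted p was 0.056, and without dim probesets 0.079.

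The other 5 slow isoforms were not called. Myl2, the slow and cardiac regulatory light chain, was 4.92, 4.78, 4.90, 4.71 and 5.08 in the tumours and 5.01 to 7.59 in skin, with a median of 5.98. Its skins fell apart, with numbers 2, 3 and 5 at 7.06, 7.59 and 6.91 and numbers 1, 4 and 6 between 5.01 and 5.05, within the tumours' range. The difference was -1.23 (95% interval -2.22 to -0.24, adjusted p = 0.067, limma), and it was called without normal skin 1, 4 or 6 (adjusted p = 0.032, 0.037 and 0.036). With the number in the title as a block it was also called, at -1.44 (adjusted p = 0.030, limma). Tnnc1, the troponin C of slow and cardiac muscle, was 6.47, 6.52, 6.34, 6.17 and 6.18 in the tumours and 6.16 to 8.37 in skin, with a median of 6.64. Only normal skins 1, 2 and 3 lay above all tumours, and the difference was -0.68 (95% interval -1.44 to 0.08, adjusted p = 0.18). Myl3, the slow essential light chain, was 5.89, 5.80, 5.50, 5.79 and 5.17 in the tumours and 5.70 to 7.12 in skin, with a median of 5.95. Normal skin 2 alone stood clear of the rest, and the difference was -0.48 (95% interval -0.98 to 0.01, adjusted p = 0.14).

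Myh7, the slow and cardiac myosin heavy chain, was 5.50, 5.39, 5.64, 5.45 and 5.50 in the tumours and 5.25 to 5.99 in skin, with a median of 5.46. The groups overlapped almost wholly, with a difference of -0.03 (95% interval -0.31 to 0.25, adjusted p = 0.89, limma). Tnni1, the slow troponin I, was 6.09, 6.09, 5.89, 6.75 and 6.26 in the tumours and 5.63 to 7.04 in skin, with a median of 6.12. Its groups overlapped too, and the difference was 0.05 (95% interval -0.44 to 0.55, adjusted p = 0.89). These intervals do not show that Myh7 and Tnni1 stayed the same. Their mean levels in normal skin, 5.53 and 6.16, were below every array's median (6.22 to 6.27). They also lay within the levels that fallen genes reached in the tumours. At like levels in normal skin, Sln (6.16) was called lower, at -0.81. Myl2 and Myl3 (both 6.11) differed by -1.23 and -0.48 and were not called. The skins of Myl2 were widely spread (SD 1.20). How far low signal limited a fall of Myh7 and Tnni1 was not tested. The sign of both small differences turned under some of the other settings.

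**Figure D2:**
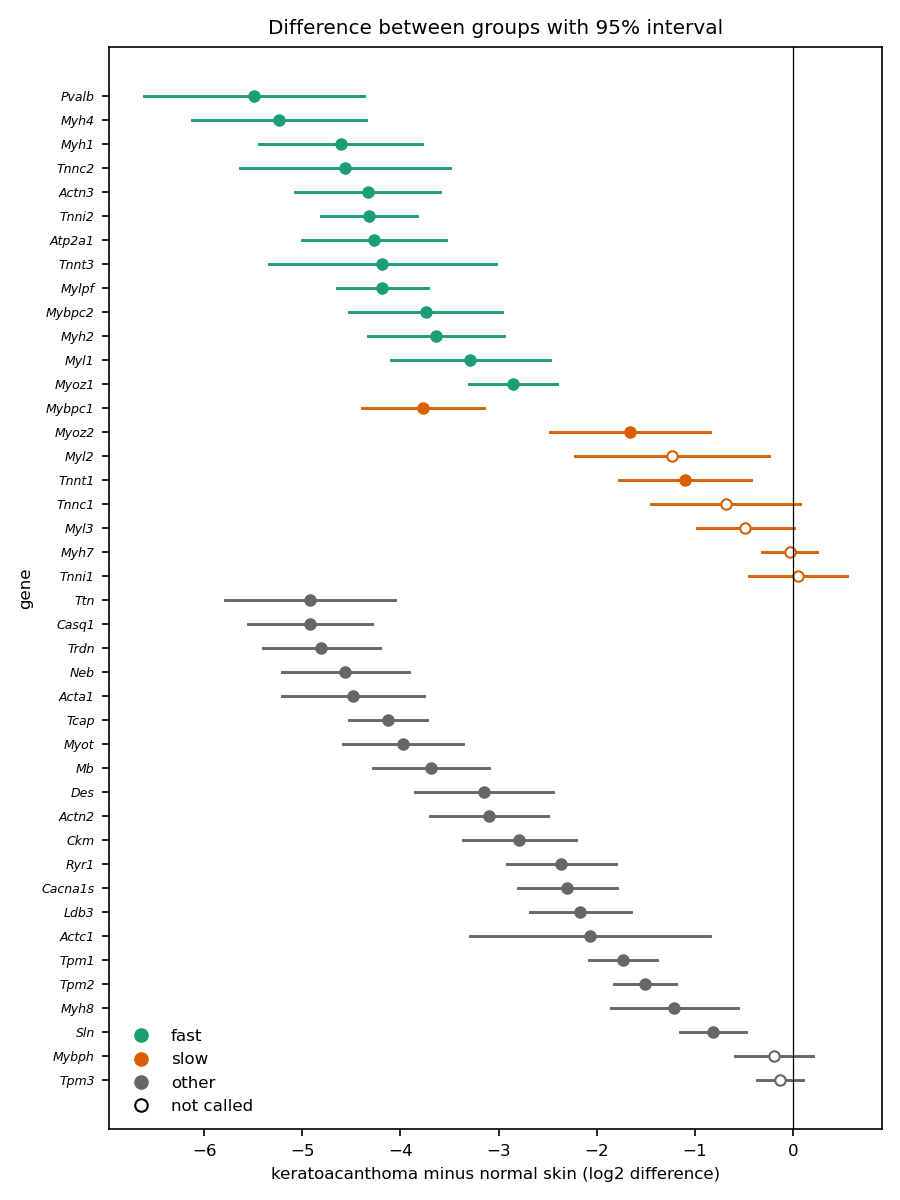
Difference between keratoacanthoma (n = 5) and normal skin (n = 6) on the log2 scale for each of the 42 genes, with its 95% interval from limma, coloured by class, with open circles for genes not called at an adjusted p of 0.05. All 13 fast isoforms lie left of -2.8, while only Mybpc1 of the 8 slow isoforms does.

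Fast and slow genes of the same family were then compared within each array, by the log2 level of the fast gene minus that of the slow. The zero of such a value depends on the probes, so that only its change between groups is read. Where the slow gene was already low in skin, as Myh7, Tnni1, Myl2 and Myl3 were with means of 5.53, 6.16, 6.11 and 6.11, the slow gene had less room to fall than its fast partner; how far this sets the change of the pair was not tested. The value was lower in keratoacanthoma for 7 of the 8 pairs, by exact two-sided permutation tests adjusted over the 8 pairs (Benjamini-Hochberg). The classes and pairs were chosen with earlier results of these data known, so these p-values are descriptive. For troponin I, Tnni2 minus Tnni1 was 1.22, 1.16, 2.27, 1.52 and 0.68 in the tumours and 5.11 to 6.48 in skin, a change of -4.37 (95% interval -5.15 to -3.55 by inverting the exact test). For the heavy chains, Myh4 minus Myh7 changed by -5.21 (95% interval -6.41 to -3.95), the largest change of the 8. Myh4 was also the fast heavy chain with the largest fall. For troponin C the change was -3.88 and for troponin T -3.09. For the regulatory light chains, Mylpf minus Myl2, it was -2.95, and for the essential light chains, Myl1 minus Myl3, it was -2.80. In these 6 pairs no tumour reached the lowest skin, and the exact p was 0.0043, the smallest that 5 against 6 arrays can give, or 0.0058 adjusted.

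The myozenins and the myosin-binding proteins C differed from those 6 pairs. Myoz1 minus Myoz2 changed by -1.19 (95% interval -1.89 to -0.45, exact permutation p = 0.017, adjusted 0.020), and normal skin 2, at -0.02, lay among the tumours. Mybpc2 minus Mybpc1 was -0.47, 0.41, 0.52, 0.47 and -0.04 in the tumours and -0.32 to 0.55 in skin. Those ranges coincide, and the change was 0.03 (95% interval -0.49 to 0.61, exact permutation p = 0.92). An equal fall of these genes was not shown, but the interval leaves out a change as large as in the troponin and myosin pairs.

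**Figure D3:**
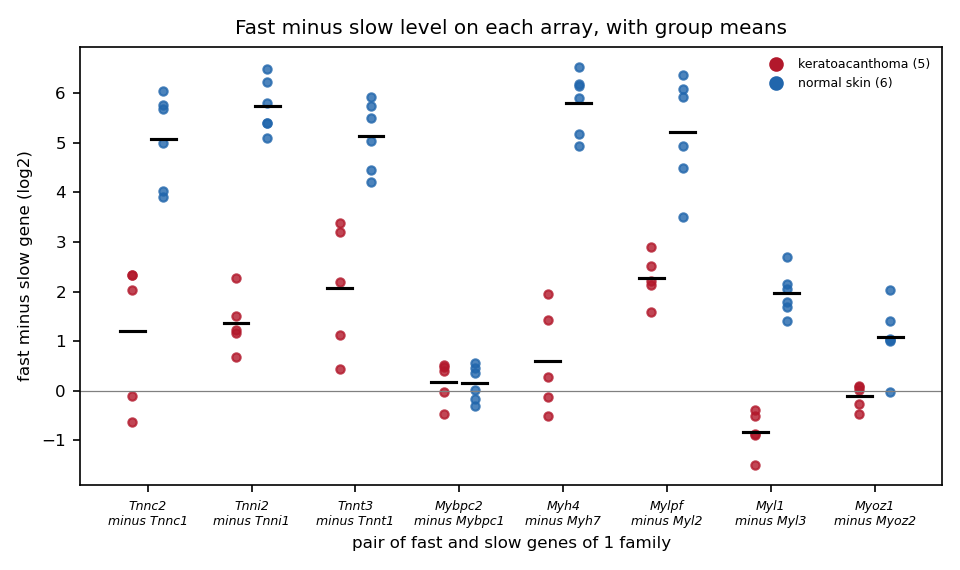
Fast minus slow gene level (log2) on each array for 8 pairs of 1 protein family each, red for the 5 keratoacanthomas and blue for the 6 normal skins, with black bars at group means. The groups stand apart in 6 pairs, meet at 1 skin for Myoz1 minus Myoz2, and coincide for Mybpc2 minus Mybpc1.

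Among the 21 genes not assigned to a fibre type, the largest falls were those of Ttn, Casq1, Trdn, Neb, Acta1 and Tcap, in that order. Ttn, encoding titin, the molecular spring of the sarcomere, was 6.63, 5.15, 7.41, 7.26 and 5.29 in the tumours and 10.72 to 11.92 in skin, with a median of 11.27. Tumours 2 and 5 were lowest and the groups did not overlap, and Ttn fell by 4.93 (SE 0.40, adjusted p = 3.8e-06, limma), 30.4-fold. Casq1, calsequestrin, which stores calcium in the sarcoplasmic reticulum, was 6.23, 5.22, 6.07, 6.79 and 5.30 in the tumours and 10.29 to 11.63 in skin, with a median of 10.80. It fell by 4.92 (SE 0.29, adjusted p = 3e-07), 30.3-fold, with the same 2 tumours lowest. Trdn, triadin, which ties calsequestrin to the release channel, was 4.25, 4.12, 4.66, 4.99 and 3.82 in the tumours and 8.34 to 9.97 in skin, with a median of 9.21. Only keratoacanthoma 4 was above the dim level, and Trdn fell by 4.81 (SE 0.28, adjusted p = 2.2e-07). Its 28.0-fold difference became 17.7-fold with levels held at each array's 25th percentile or above, and 14.6-fold with the mean over probesets.

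Nebulin, Neb, which runs along the thin filament, was 6.25, 5.69, 7.09, 6.87 and 5.69 in the tumours and 10.23 to 11.64 in skin, with a median of 10.84. Neb fell by 4.56 (SE 0.30, adjusted p = 7.5e-07, limma), and tumours 3 and 4 were its highest. Skeletal alpha-actin, Acta1, was 7.48, 6.14, 7.88, 7.71 and 6.11 in the tumours and 10.99 to 12.14 in skin, with a median of 11.50. Acta1 fell by 4.49 (SE 0.33, adjusted p = 1.7e-06), with tumours 2 and 5 lowest once more. Telethonin, Tcap, which caps titin at the Z-disc, was 6.18, 5.36, 5.61, 5.96 and 5.07 in the tumours and 9.52 to 10.12 in skin, with a median of 9.72. Tcap fell by 4.13 (SE 0.19, adjusted p = 6e-08), and normal skins were close together.

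Of the remaining Z-disc and filament genes, Myot (myotilin) fell by 3.97 (SE 0.28), Des (desmin, the muscle intermediate filament) by 3.15 (SE 0.33), Actn2 (alpha-actinin of all fibres) by 3.10 (SE 0.28) and Ldb3 by 2.17 (SE 0.24). In excitation-contraction coupling, Ryr1, the calcium release channel, fell by 2.36 (SE 0.26) and Cacna1s, the voltage sensor that opens it, by 2.30 (SE 0.23). Sln, sarcolipin, which inhibits the calcium pump, fell by 0.81 (SE 0.15), the smallest called fall among the 42. Of its 4 probesets 2 were lower and 2 were not called. Mb, myoglobin, fell by 3.69 (SE 0.27) and Ckm, muscle creatine kinase, by 2.79 (SE 0.27). With the mean over probesets Mb was 6.50-fold lower in place of 12.9-fold, and Des 5.67-fold in place of 8.85-fold. Each of these 9 genes was lower in every tumour than in every skin.

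Actc1 and Myh8, the cardiac actin and the perinatal heavy chain that developing skeletal muscle uses, varied widely between skins. Actc1 was 5.70 to 6.12 in the tumours and 8.20, 10.59, 8.64, 7.24, 6.94 and 6.47 in normal skins 1 to 6. Every skin was above every tumour, but the skins spread over 4.11 log2 units, and Actc1 fell by 2.06 (SE 0.57, adjusted p = 0.017, limma). Without the 3 arrays with high hair keratins its adjusted p was 0.087. Myh8 was 5.37 to 5.68 in the tumours and 6.19 to 8.25 in skin, with number 2 alone above 6.60, and it fell by 1.21 (SE 0.30, adjusted p = 0.0099). Of its 32 probesets 10 were lower and 22 were not called, with differences from -3.88 to 0.50 over all 32.

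Mybph and Tpm3 were not called. Mybph, myosin-binding protein H, was 6.21, 6.11, 6.42, 5.56 and 6.27 in the tumours and 5.88 to 6.83 in skin, with a median of 6.28. Tpm3, a tropomyosin of slow fibres that non-muscle cells also make, was 7.60, 7.59, 7.39, 7.34 and 7.29 in the tumours and 7.41 to 7.79 in skin, with a median of 7.54. Both overlapped, with differences of -0.19 (95% interval -0.59 to 0.20, adjusted p = 0.49, limma) for Mybph and -0.13 (95% interval -0.37 to 0.10, adjusted p = 0.41) for Tpm3. With the mean over probesets in place of the median both were called lower, Mybph by -0.43 (adjusted p = 0.0067) and Tpm3 by -0.23 (adjusted p = 0.040).

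The tropomyosins, which lie along actin and are made in muscle and non-muscle forms from the same genes, were split within the gene. As gene levels Tpm1 fell by 1.73 (SE 0.16) and Tpm2 fell by 1.51 (SE 0.14), less than most of the 35. Of 17 probesets of Tpm1, 11 were lower, by -3.42 to -0.92, and the other 6 ran from -0.38 to 1.00 without a call. The Tpm1 probeset 10594665 was 8.67, 7.65, 10.28, 10.24 and 7.67 in the tumours against 12.17 to 12.43 in skin, while probeset 10594669 was 8.70 to 9.42 in the tumours and 7.22 to 9.33 in skin. The former held the groups apart and the latter did not. Of 14 probesets of Tpm2, 8 were lower, by -2.68 to -0.93, 2 were higher and 4 were not called. Its probeset 10512504 rose by 0.73 (SE 0.20, adjusted p = 0.029, limma over all probesets) and 10512507 by 0.56 (SE 0.17, adjusted p = 0.042), and these were the only probesets of the 42 genes that rose. Among all probesets 8.29% were higher. Of 8 probesets of Tpm3, 3 were lower, by -0.71 to -0.59, and 5 ran from -0.25 to 0.24. Which exons these probesets read was not analysed here.

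**Figure D4:**
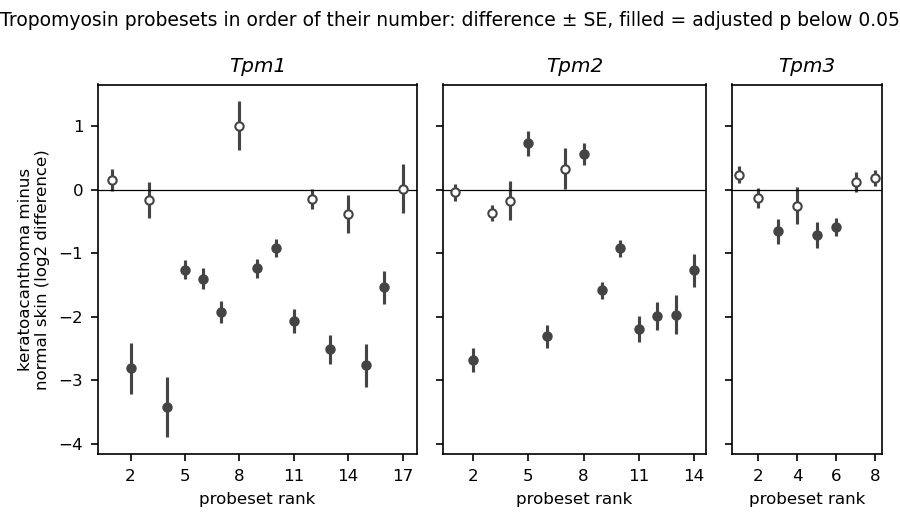
Difference between keratoacanthoma and normal skin (log2, ± SE from limma) for each probeset of Tpm1, Tpm2 and Tpm3, ranked by probeset number, with filled circles for an adjusted p below 0.05. Probesets of Tpm1 and Tpm2 range from falls below -2.6 to values above 0 within the same gene, and Tpm3 stays between -0.71 and 0.24.

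Over all 42 genes, 983 of 1157 probesets (85.0%) were lower, against 6.98% of all probesets, and in 13 genes every probeset was lower, among them Pvalb, Myh4, Acta1 and Casq1. A probeset was also compared with the median of its gene on the same array. By this measure 382 of 1154 probesets (33.1%) changed unlike their gene, 144 falling more and 238 falling less or rising, against 4.08% of all probesets tested, 2.44% lower and 1.64% higher than their gene. Ttn had 78 of these among 319, Ryr1 had 47, Neb 40 and Cacna1s 25. The 4.08% is over the probesets of all genes, whether or not the gene changed. In the genes not called lower the share was 0%, or 3.03% for Myh7. It was 10% for Tnnt1, 24.5% for Ttn and 46.1% for Ryr1. Whether a large fall of a gene by itself spreads its probesets around the median was not tested. Of the 238, 9 were dim in normal skin, and 175 had themselves changed past the threshold. Of the 772 not called unlike their gene, 24 were dim in normal skin. With double transgenic skin alone as the reference the 382 became 127, a comparison of fewer arrays.

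Normal skin of the tumours' own genotype gave a similar picture. In a 4-group model, 35 of the 42 genes were lower in keratoacanthoma than in normal skins 1 and 2 and 0 were higher, while 6.93% of all genes were lower and 10.6% higher. The median difference was -3.65. These comparisons share the tumours and both double transgenic skins with those above, and are given side by side. Pvalb differed by -5.44 (SE 0.78), Mybpc1 by -3.84 (SE 0.43), Ttn by -4.97 (SE 0.60), and Actc1 by -3.44 (SE 0.52). Tnnc1 was the closest to a call among the genes that missed it, at -1.25 (SE 0.41, adjusted p = 0.056, limma).

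Among normal skins, 0 of the 42 genes differed between double and single transgenic mice by limma, where 0.0147% of all genes did. At an unadjusted p below 0.05 there were 4 (Actc1, Mb, Myh8 and Tnni1), no larger a share than the 10.2% of all genes at that level. Actc1 averaged 9.39 in double transgenic skin, 7.94 with K14-Cre only and 6.71 with the Zmiz1 transgene only, a difference of 2.07 (SE 0.54, adjusted p = 0.33) between double and single. Its means and those of Mb, 10.51, 10.02 and 9.34, come from 2 arrays each. Without normal skin 1, which leaves number 2 as the only double transgenic skin, 9 genes were called (Actc1, Actn2, Ckm, Ldb3, Mb, Myh8, Myl1, Myoz2 and Ryr1), against 1.7% of all genes in the same fit, where the lone array is assumed to vary like the other groups. Between K14-Cre only and Zmiz1 only, 0 of the 42 were called by limma (1 at an unadjusted p below 0.05, Myh7), against 0% of all genes, of which 1232 were lower and 797 higher at an unadjusted p below 0.05.

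Single arrays ranked alike over many of the genes. Normal skin 1 was the lowest skin for 23 of the 42, where number 2 was mostly the highest. Keratoacanthomas 1, 3 and 4 were all above 2 and 5 in 24 of the 35 genes that fell. The share of all genes with that order was not counted, so the order is not shown to be particular to muscle genes. The mean level of the 13 fast isoforms was 6.30, 5.57, 6.90, 7.00 and 5.44 in keratoacanthomas 1 to 5 and 9.88 to 11.19 in skin. These genes share arrays and tissue pieces, so that their like order is not repeated evidence.

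Other genes of muscle, from lists made with results of these data known, moved with them. Of 25 further sarcomere genes 24 were lower, with a median of -2.23, led by Cmya5 at -4.39 (SE 0.32) and Xirp2 at -4.18 (SE 0.41), both made in striated muscle. Of 17 genes of muscle energy supply 16 were lower, with a median of -3.42, led by Cox8b, a muscle subunit of cytochrome oxidase, at -5.07 (SE 0.24), and Car3, carbonic anhydrase of muscle and fat, at -4.88 (SE 0.45). Of 19 further genes of excitation-contraction coupling 14 were lower and 1 higher, with a median of -1.11. Hrc, a calcium-binding protein of the sarcoplasmic reticulum, was at -3.86 (SE 0.29) and Cacna2d1, a calcium channel subunit, at -2.25 (SE 0.25). The gene that rose was Atp2a2, the calcium pump of slow, cardiac and non-muscle cells, at 0.72 (SE 0.12, adjusted p = 0.00059, limma).

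Of 15 genes of the neuromuscular junction and the muscle membrane 10 were lower, with a median of -0.72, led by Dmd (dystrophin) at -3.31 (SE 0.22) and Sgcd (delta-sarcoglycan) at -2.38 (SE 0.28). Of 15 myogenic factors 8 were lower, with a median of -0.48, led by Myf6, the factor of mature fibres, at -2.50 (SE 0.28), and Mef2c at -2.03 (SE 0.20). Pax7, of satellite cells, differed by -0.33 (95% interval -0.73 to 0.07) and was not called. Of 9 genes of developing muscle, which include Actc1 and Myh8, 4 were lower, with a median of -0.72 and with Myl4 at -1.27 (SE 0.41). None of these 3 lists held a gene that rose.

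Markers of other cells were set beside these values. Over all genes, 10.8% were lower and 14.5% higher. Of 8 cardiac genes 0 were lower and 2 higher, Tnni3 by 1.09 (SE 0.17) and Myl7 by 0.76 (SE 0.25). Of 16 non-muscle relatives of the 42 genes 7 were higher and 2 lower, with Tpm4 at 0.74 (SE 0.18), Atp2a2 as above, and Atp2a3 and Myh14 both at -0.43. Of 12 smooth muscle genes 4 were lower, with a median of -0.20, led by Synpo2 at -2.08 (SE 0.22) and Myh11 at -1.25 (SE 0.26). Their mean level was 6.34 to 6.75 in the tumours and 6.62 to 7.24 in skin, which overlap, so smooth muscle did not show the separation of the fast isoforms.

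Most markers of fat cells and fibroblasts also fell. Of 8 fat cell genes 7 were lower, with a median of -1.66, led by Adipoq at -3.49 (SE 0.56) and Cfd at -2.74 (SE 0.51), and their mean level was 5.83 to 7.02 in the tumours and 7.72 to 8.77 in skin. The 5 brown fat genes had a median of 0.04 and were mixed. Of them Ppargc1a, at -2.46 (SE 0.17), and Cpt1b, at -0.52, were lower and Cidea, at 0.51, was higher. Their mean level was 5.25 to 5.63 in the tumours and 5.58 to 6.30 in skin, with group means of 5.54 and 5.93. Of 7 fibroblast genes 4 were lower, led by Dpt at -2.02 (SE 0.41) and Dcn at -1.87 (SE 0.36), with mean levels of 7.39 to 8.60 and 8.92 to 9.75. Of 8 keratinocyte genes 5 were higher and 1, Krt15, was lower by -0.54, led by Dsg3 at 1.94 and Krt14 at 1.19, with mean levels of 10.88 to 11.08 in the tumours and 9.98 to 10.52 in skin. The part that the makeup of the samples has in the falls of the 42 genes was not tested.

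Of 9 hair keratins 1 (11.1%), Krt32, was lower, near the 10.8% of all genes. Their mean level was 5.96 to 6.20 on 8 arrays. It was 8.13 in keratoacanthoma 4, 9.38 in normal skin 1 and 9.08 in normal skin 3. Without those 3 arrays, a choice made after seeing the data, 33 of the 42 muscle genes were lower in place of 35. Tnnt1 and Actc1 were no longer called, although Tnnt1 differed by -1.09 in place of -1.10 and Actc1 by -1.90 in place of -2.06, with fewer arrays. The fast isoforms then had a median of -4.66.

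**Figure D5:**
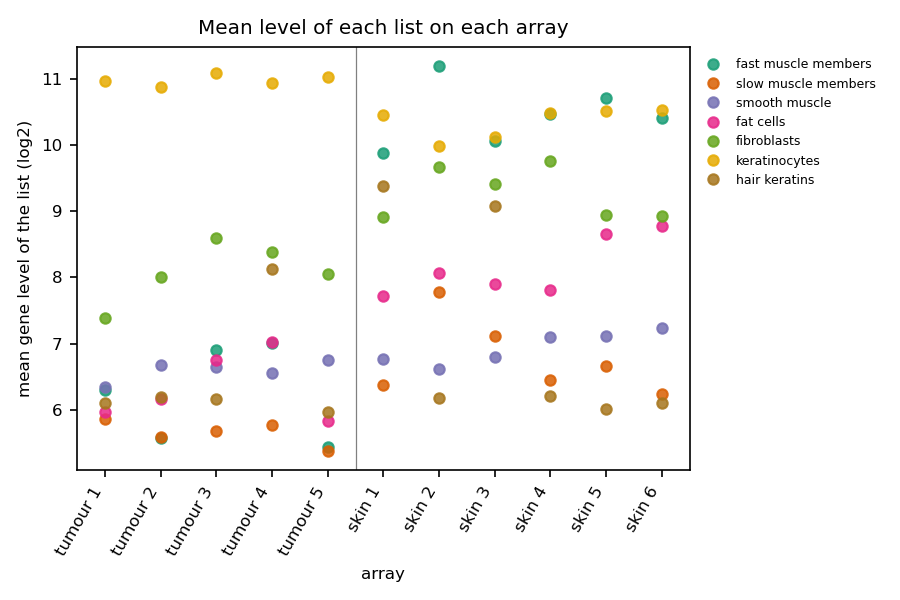
Mean gene level (log2) of fast and slow muscle isoforms and of 5 marker lists on each array, keratoacanthomas left of the line and normal skins right of it. Fast isoforms lie at 5.44 to 7.00 in the tumours and 9.88 to 11.19 in the skins, fat cell and fibroblast genes are also lower in the tumours, smooth muscle overlaps, and hair keratins are high on 3 arrays.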

How the data were processed

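The deposited values are log2 values of 241576 probesets per array, for which the submitters' processing notes name RMA, Partek and genome build mm9, with versions and settings not given in the sources used here; per the labels, RNA of snap-frozen tissue was amplified by SPIA and hybridised as biotin-labelled cDNA. This normalization was kept. Array medians were 6.22 to 6.27, no 2 arrays were identical, arrays of the same kind correlated at 0.943 to 0.960 (tumours) and 0.890 to 0.950 (skins) and those of unlike kind at 0.801 to 0.915, and the number of arrays limits the precision. The labels name no batch.

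Of the probesets, 212097 named 1 gene, 4475 several and 25004 none in the array's annotation. After 590 identical copies were dropped, 211507 gave 20352 genes (2742 symbols updated), each the median over its probesets. Tests used limma 3.58.1 (lmFit, eBayes) in R 4.3.3, adjusted over all genes or probesets by Benjamini-Hochberg, with a threshold of 0.05, for 2 groups and for 4 genotype groups. Scripts were tested on simulated data. Exact permutation tests used scipy 1.17.1, and figures matplotlib 3.10.9. Of all genes 2200 were lower and 2959 higher (42.6% lower); with arrays centred on their medians 1677 and 3485 (32.5% lower), where the median of all genes moved from -0.04 to 0.02.

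The 42 genes, the fast and slow classes, the pairs and the lists were chosen with earlier results of these data known. Named with every array's values were the 3 fast, 3 slow and 6 other genes of largest difference and all not called lower; of other lists, up to 2 rises and 2 falls. Myh4 as a promoter, Pax7 and the named Tpm1 and Tpm2 probesets were chosen after their values were seen. Alternatives were other probeset summaries, filters, scalings, fits and references, the title's number as a block, and each array left out.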

Additional observations from a re-analysis of the deposited data

Results flagged for a closer look

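In each group of arrays every muscle gene was checked for an array far from the rest by Dixon's test. Of 84 groups 5 had such an array, and chance alone gives about 1 in 20. Normal skin 2 was far above the other skins in 4 of them. It was 7.12 for Myl3, where the others were 5.70 to 6.07. For Actn2 it was 9.999 against 8.07 to 8.46, and for Myh8 it was 8.25 against 6.19 to 6.60. For Ckm it was 10.77 against 8.74 to 9.43. In the keratoacanthomas, number 2 was low for Ryr1, at 5.29 against 5.62 to 5.75.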

How the results depend on the processing

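Of the 35 genes called lower, 33 kept their call and direction under all 23 alternatives of the comparison of keratoacanthoma with normal skin; Tnnt1 and Actc1 did not, as given above. The count of genes lower ran from 33 to 38, and for leaving out each array from 34 to 36. The differing pairs numbered 6 or 7. The pairs were not run with the number in the title as a block or with double transgenic skin as the only reference, where the exact test cannot reach the threshold, and array weights and the eBayes trend do not apply to them. Same-numbered arrays did not deviate together, with correlations of -0.18 to 0.10, and 1 of 5 tumours was closest to the skin of its own number. With the replicate block 36 genes were lower, the added call being Myl2, and 219 probesets changed unlike their gene in place of 382, on fewer arrays. With double transgenic skin as the only reference that count was 127, the median of the 21 other genes was -3.39 in place of -2.79, Tnni1 was at -0.39 and Mybph at 0.13, both reversed, and Tnnc1 was called (adjusted p = 0.044). Between double and single transgenic skin, 0 to 9 genes were called when each array was left out, and 7 (against 1.06% of all genes) without the 3 arrays high in hair keratins, an alternative chosen after seeing the data. Myh7 turned to 0.053 with quantile normalization again, 0.030 with centred arrays, 0.011 with array weights and 0.077 without the hair-keratin arrays, and ran from -0.087 to 0.063 when each array was left out. Tnni1 was -0.035 without the hair-keratin arrays and -0.080 to 0.23 when each array was left out. The cause of these changes was not tested. Myl2, Mybph and Tpm3 gained a call with the mean over probesets. The tumour means of Myl1, Myl2 and Trdn were below the lowest 25th percentile. With levels held at each array's 25th percentile or above, their folds were 8.01, 2.10 and 17.7 in place of 9.76, 2.35 and 28.0. Genes dim in some tumours also had smaller folds, such as Pvalb (39.8 in place of 45.0), Myh1 (23.2 in place of 24.4) and Myoz1 (6.75 in place of 7.21). How far dim signal limited the folds was not tested.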

Other observations

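Within the long genes, single probesets stood far from their gene. For Ttn, the probeset that fell least against the gene, 10484179, differed by -0.31 (SE 0.42) where the gene differed by -4.93, at 5.63 ± 0.97 (SD, n = 6) in normal skin. For Neb, probeset 10482548 was bright in both groups, 11.15 ± 0.15 (SD, n = 5) in the tumours against 12.13 ± 0.19 (SD, n = 6) in skin, and differed by -0.99 (SE 0.15) where Neb differed by -4.56. For Ryr1, probeset 10561663 differed by 0.25 (SE 0.28) and for Cacna1s, probeset 10350227 by 0.34 (SE 0.43), with means of 4.89 and 5.30 in normal skin. Each of these 4 probesets changed unlike its gene past the threshold (limma on the probeset minus its gene), with adjusted p of 0.00023, 6.3e-05, 0.0011 and 0.00083.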
